A study of Mus musculus with 3 samples.

Results

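Chromatin accessibility of forelimb mesenchymal progenitors (MPs) was compared between embryonic day (E) 12.5 and E14.5, with 1 single-nucleus ATAC-seq library per stage and the nuclei of each library summed. The unit of comparison was the matched region, an autosomal interval in which each library's peak list held exactly 1 peak and these peaks had a reciprocal overlap of 50% or more. Of 195907 merged autosomal regions of the E12.5 and E14.5 lists, 87166 had a peak in both lists, 83475 had exactly 1 in each, and 60527 passed the overlap. The E12.5 list held 186700 autosomal peaks, of which 32.4% were matched, and the E14.5 list 100429, of which 60.3% were matched. Regions with a peak at 1 stage alone are therefore not part of any count below. Merging all 3 libraries of the series gave 260778 autosomal regions. At the threshold, the nearest region inside had an overlap of 50% and the nearest outside 49.98%.

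Both libraries came from C57BL/6J embryos of the genotype Hic1CreERT2/CreERT2;Rosa26LSLtdTomato/tdTomato whose dams had received 7.5 mg of tamoxifen by gavage at embryonic day 10. The Cre recombinase is expressed from the Hic1 locus, so the red fluorescent reporter marks cells that used Hic1 around the time of tamoxifen, and their descendants. The sort took tdTomato-positive cells and gated out blood, mast, endothelial and myeloid cells by Ter119, CD45, CD117, CD31, CD11b and F4/80. Dispase was used on pooled forelimb pairs at E12.5, and Collagenase A, Pronase and DNase on single pairs at E14.5. Stage, library and digestion cannot be told apart, and 1 library per stage gives neither a replicate error nor a test. A region or gene was called when its ratio passed 2-fold, which describes these libraries. The E12.5 library held 8294 nuclei and 87048167 cut sites in peaks, of which 67.7% of those on autosomes lay in matched regions. The E14.5 library held 20023 nuclei and 204289151 cut sites, with 83.3% in matched regions. In all, 213 barcode sequences occurred in both libraries, which is 2.57% of those at E12.5 and 1.06% at E14.5.

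ATAC-seq reads where a transposase can cut, which is where DNA is free of nucleosomes. Promoters rich in CpG are open in most cell types, whereas distal enhancers in introns and between genes open and close as cells take on new identities. NFI factors bind a palindrome whose arm reads TTGGCA and are known for their role in the timing of progenitor maturation. AP-1, the dimer of Fos and Jun proteins, binds TGANTCA downstream of growth factor and stress signals, and TEAD factors, the DNA-binding partners of Yap and Taz, bind ACATTCC.

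The sequences below are from regions called in either direction. They are 300 bp windows around the centre of the overlap of the 2 called peaks, read from the plus strand of GRCm38 (mm10). The first 4 windows had more cut sites at E14.5 and hold the NFI motif on either strand, which is in capitals. They lie in introns of Mapkap1 (chr2:34531936-34532235) and Creb5 (chr6:53496724-53497023), and between genes 41.5 kb from the start site of Lrrc74a (chr12:86775735-86776034) and 189 kb from that of Spata18 (chr5:73846519-73846818).
Mapkap1: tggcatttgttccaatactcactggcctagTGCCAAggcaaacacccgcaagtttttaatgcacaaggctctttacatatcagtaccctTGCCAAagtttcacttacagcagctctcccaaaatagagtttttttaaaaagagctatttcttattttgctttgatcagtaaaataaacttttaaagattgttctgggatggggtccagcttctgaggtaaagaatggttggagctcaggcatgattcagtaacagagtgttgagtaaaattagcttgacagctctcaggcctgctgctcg
Lrrc74a: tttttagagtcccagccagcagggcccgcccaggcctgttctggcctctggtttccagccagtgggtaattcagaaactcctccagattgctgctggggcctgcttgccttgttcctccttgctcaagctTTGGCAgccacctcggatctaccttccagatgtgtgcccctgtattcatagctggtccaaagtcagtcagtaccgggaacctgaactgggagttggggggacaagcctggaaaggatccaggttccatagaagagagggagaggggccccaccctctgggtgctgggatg
Spata18: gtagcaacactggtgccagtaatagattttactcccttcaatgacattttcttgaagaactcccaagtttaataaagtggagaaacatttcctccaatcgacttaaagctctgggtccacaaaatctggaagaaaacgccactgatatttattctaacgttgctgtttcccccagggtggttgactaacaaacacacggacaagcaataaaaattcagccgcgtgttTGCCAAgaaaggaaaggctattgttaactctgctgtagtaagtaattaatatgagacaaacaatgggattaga
Creb5: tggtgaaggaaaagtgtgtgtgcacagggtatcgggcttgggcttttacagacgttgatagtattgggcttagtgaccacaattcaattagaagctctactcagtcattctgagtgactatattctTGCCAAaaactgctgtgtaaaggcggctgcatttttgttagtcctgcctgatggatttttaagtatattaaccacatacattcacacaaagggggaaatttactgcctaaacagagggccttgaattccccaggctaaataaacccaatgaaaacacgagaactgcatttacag
The next windows, a pair, had fewer cut sites at E14.5, and AP-1 and TEAD motifs on either strand are in capitals. They lie in an intron of Pepd (chr7:34930092-34930391) and in an intron of the lincRNA Gm17767 at 107 kb from the start site of Nabp1 (chr1:51584841-51585140).
Pepd: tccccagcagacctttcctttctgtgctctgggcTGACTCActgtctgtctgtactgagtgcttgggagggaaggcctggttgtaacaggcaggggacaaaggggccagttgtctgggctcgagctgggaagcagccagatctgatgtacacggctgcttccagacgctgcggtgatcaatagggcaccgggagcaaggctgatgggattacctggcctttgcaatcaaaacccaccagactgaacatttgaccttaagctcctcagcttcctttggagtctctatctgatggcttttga
Nabp1: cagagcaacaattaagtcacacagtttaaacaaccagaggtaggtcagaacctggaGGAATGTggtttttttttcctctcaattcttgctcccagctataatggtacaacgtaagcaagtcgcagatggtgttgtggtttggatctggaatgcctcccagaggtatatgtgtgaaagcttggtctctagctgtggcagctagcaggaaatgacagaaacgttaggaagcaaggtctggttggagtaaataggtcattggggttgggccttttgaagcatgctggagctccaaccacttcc
These windows were picked to show the motifs. Among the 10 intron and intergenic regions with the highest ratios, 3 windows held an NFI motif, 2 an AP-1 motif and 2 a TEAD motif. Among 8 of the regions with low ratios named below, 1 window held an NFI motif, 1 an AP-1 motif and 1 a TEAD motif. The region near Klhl14 was left out of this count. These few windows alone do not show a difference in AP-1 or TEAD.

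The first comparison asked how far accessibility differed by class of region. Cut sites were scaled to 1000000 in matched regions (CPM), and 60498 regions with at least 100 cut sites over both libraries were kept. Promoter regions were called less often than distal regions. Of all matched regions kept, 5729 (9.47%) were at least 2-fold higher at E14.5 and 5191 (8.58%) at least 2-fold lower, and 36.2% lay within 25% of equal levels. Among 14662 promoter regions (1000 bp upstream to 100 bp downstream of a start site of any transcript type), 239 (1.63%) were 2-fold higher and 275 (1.88%) 2-fold lower. Among 40796 distal regions (introns and intergenic), 5121 (12.6%) were 2-fold higher and 4401 (10.8%) 2-fold lower. Introns and intergenic regions gave almost the same picture, with 2540 higher and 2321 lower of 20206 intron regions, and 2581 higher and 2080 lower of 20590 intergenic regions. The 5040 exon regions had 369 higher and 515 lower. Classes also differed in level, with a median of 33.9 CPM at E12.5 at promoters and 6.04 at distal regions. In the promoter decile of lowest mean CPM over both libraries, up to 7.99, 10.4% were 2-fold higher and 7.98% lower. In the distal decile of highest mean CPM, from 18.7, 3.19% were higher and 11.1% lower. The difference between classes was thus not separated from level.

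The bulk of promoters was slightly higher at E14.5, and the bulk of distal regions slightly lower. The median log2 ratio of E14.5 over E12.5 was 0.14 at promoters, with 65.6% above 0, and -0.19 at distal regions, with 40.8% above 0. Promoter regions held 55.8% of the cut sites in matched regions at E12.5 and 60.8% at E14.5, and distal regions held 38.2% and 33.9%. Since nuclei were summed, a smaller share of nuclei with an open region and less cutting per nucleus cannot be told apart. The promoter minus distal difference of medians was 0.32 and depended on the setting for called widths, as given next.

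Called widths moved with the ratios. Matched peaks had a median called width of 950 bp in the E12.5 list against 771 bp in the E14.5 list. In the decile of regions with the smallest ratio of E14.5 over E12.5 widths, the median log2 ratio of cut sites was -0.80, and in the decile with the largest it was 1.38, with 75.7% of regions 2-fold higher. Among 16182 distal regions whose widths were within 25% of each other (similar widths below), 2215 (13.7%) were 2-fold higher and 158 (0.976%) 2-fold lower, and the median was 0.27 against 0.20 at promoters of the same kind. The promoter minus distal difference was then -0.08. When these regions were rescaled to the same total, 1422 distal regions were higher and 350 lower, with medians of 0.14 at distal regions and 0.06 at promoters. Where the width ratio was instead held within 25% of its own median, 487 of 23896 distal regions were 2-fold higher and 1302 were lower, with medians of 0.15 at promoters and -0.18 at distal regions and a difference of 0.33. Higher calls made up 52.5% of all calls here, and after rescaling 79.9% with similar widths and 24.7% with the width ratio near its median. It was 77.9% at an overlap of 80%, 67.9% with each class scaled on its own and 65.5% after correction for GC content. The balance between gained and lost accessibility is therefore not given as a result, and values with widths held are given below for deciles, motifs and the regions and genes with the highest and lowest ratios. For gene lists they are given for the medians that moved most and for the members past 2-fold in sum or with large ratios at single distal regions, and the other list values were not adjusted for width. Gene sums and list medians with similar widths were rescaled to the total of those regions, which by itself lowers every log2 ratio alike. Usp15, with 1 region, went from 0.87 to 0.73 by this alone.

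**Figure D1:**
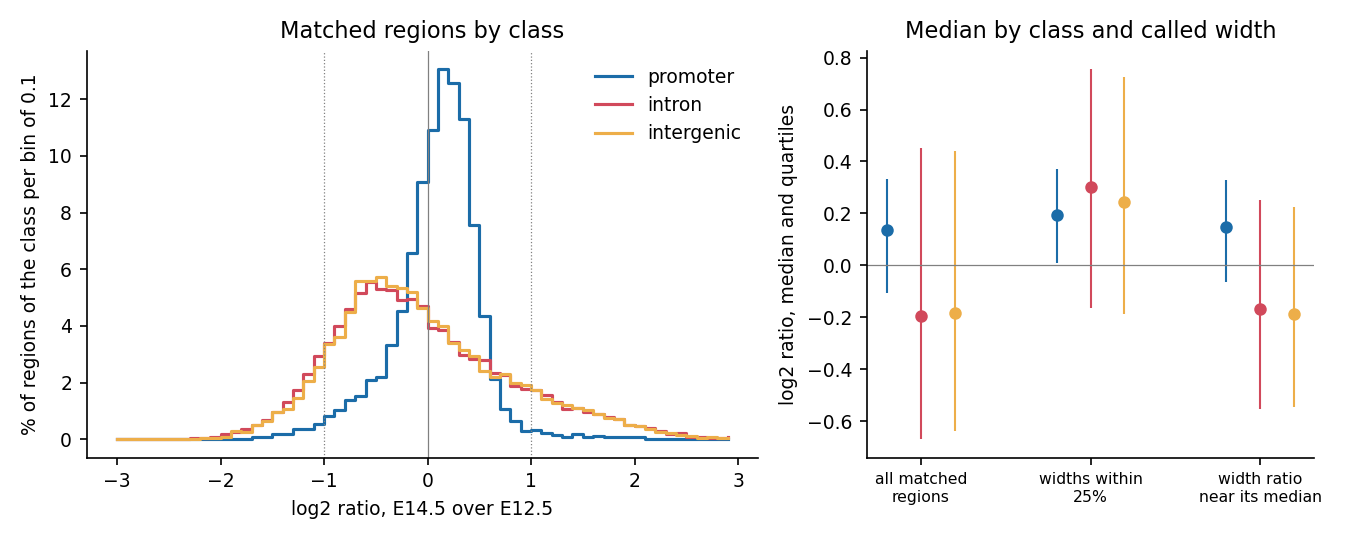
Left, the share of promoter, intron and intergenic regions in each bin of 0.1 of the log2 ratio of E14.5 over E12.5, with dotted lines at 2-fold. Right, the median log2 ratio of each class, with bars to the quartiles, in all matched regions, in those with widths within 25% of each other, and in those with a width ratio within 25% of its median; the distal medians lie at -0.19, near 0.27 and at -0.18, and the promoter medians between 0.14 and 0.20.

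Promoters were ordered by their CpG content. With CpG given as observed over expected, the median log2 ratio climbed through every decile of promoter regions, from -0.21 in the lowest to 0.00 in the third, 0.12 in the fifth, 0.21 in the eighth and 0.33 in the highest. Promoters of low CpG content were also called more often, with level not held. In the lowest decile 10.6% were 2-fold higher and 9.68% 2-fold lower, and in the highest 0.27% were higher and none of 1467 lower. Among promoters with similar widths, the medians were 0.10 in the lowest decile, 0.05 in the second and 0.36 in the highest, so the order held from the second decile upwards. Distal medians had no such order over all regions and lay between -0.22 and -0.16. From the lowest to the highest decile, distal regions 2-fold higher went from 17.8% to 7.94%, and distal regions 2-fold lower from 11.6% to 7.84%. With similar widths their medians ran the other way, from 0.47 in the lowest decile to 0.09 in the highest.

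**Figure D2:**
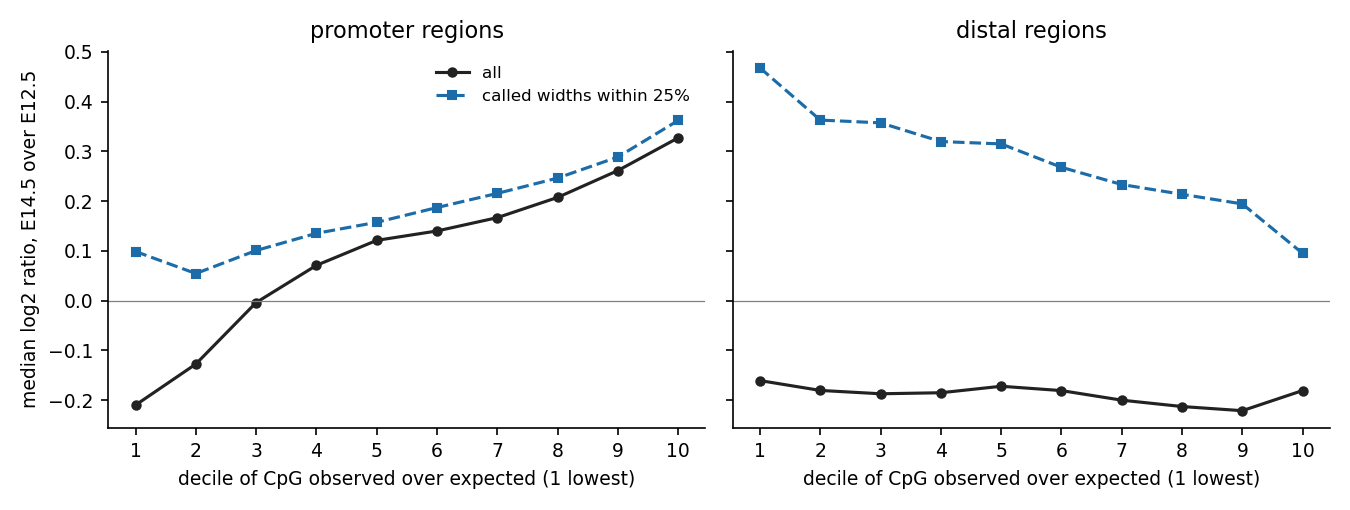
Median log2 ratio of E14.5 over E12.5 by decile of CpG observed over expected, for promoter regions (left) and distal regions (right). Circles are all regions and squares those with called widths within 25% of each other; promoter medians go from -0.21 up to 0.33, while distal medians lie between -0.22 and -0.16 over all regions and go from 0.47 down to 0.09 with similar widths.

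Distance from a start site was linked with how often distal regions were called. In the nearest decile, up to 6.86 kb from a start site, 10.3% were 2-fold higher and 9.63% lower, with a median of -0.27. In the farthest decile, beyond 272 kb, 16.9% were 2-fold higher and 12.1% lower, with a median of -0.05. With similar widths the medians of these deciles were 0.15 and 0.40. The farthest decile thus had the higher median with and without the width limit. With similar widths 16.2% of the farthest decile was 2-fold higher against 12.3% of the nearest, and 0.80% and 0.86% were lower.

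The next comparison asked which short motifs differed between distal regions that were 2-fold higher and those that were 2-fold lower. The 24 motifs were searched on both strands of the 300 bp windows. The NFI motif TTGGCA stood out. It occurred in 34.0% of higher regions, 11.997% of lower regions, 22.8% of regions within 25% of equal levels and 21.8% of all distal regions. Its share of higher regions was 2.83 times that of lower regions, 2.99 times in introns and 2.68 times in intergenic regions. At promoters 33.9% of the 2-fold higher regions held it, against 7.27% of the lower and 10.3% of all. These higher promoters lay at a median of 14.2 kb from a protein-coding start site, the lower at 8.08 kb and all at 0.197 kb. Median GC content was 47.6%, 50.2% and 55.8% in this order, and CpG observed over expected 0.24, 0.28 and 0.62. All promoters are thus not a background of like composition.

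Over all distal regions the NFI motif became more frequent at each step of the ratio. It was in 7.06% of distal regions with a log2 ratio under -2, in 12.7% from -1.5 to -1, in 20.4% from -0.5 to 0, in 28.7% from 0.5 to 1 and in 38.2% above 2. With similar widths it went from 13.4% between -1.5 and -1 to 34.4% between 1.5 and 2, and was 27.9% in the 43 regions above 2. Its share in higher over lower regions was 2.52 times among regions with similar widths, 2.82 times with the width ratio near its median, 2.71 times in the middle of 3 equal groups of distal regions by GC content and 3.17 times in 200 bp windows. In higher windows the motif was more frequent near the centre, with 45.3 motifs per 1000 windows in the 30 bp after the centre and 29.1 in the outermost 30 bp upstream. In lower windows the same bins held 11.1 and 10.7. Windows of regions within 25% of equal levels held 31.5 and 18.7, so a higher frequency at the centre was not particular to higher regions. The full palindrome was rare, in 0.18% of higher and 0.11% of lower distal regions.

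The number of NFI motifs in the window gave the same order. The 31895 distal regions with none had a median log2 ratio of -0.26, the 7941 with 1 had 0.04, the 895 with 2 had 0.40 and the 65 with 3 or more had 0.50. Those 2-fold higher made up 10.6%, 18.5%, 28.3% and 29.2%, and those 2-fold lower 12.1%, 6.25%, 3.58% and 0%. With similar widths the medians were 0.22, 0.42, 0.61 and 0.76, and with the width ratio near its median they were -0.22, -0.04, 0.12 and 0.23. The order of these medians was the same under both width settings. Promoter medians had no such order, at 0.14, 0.12, 0.22 and 0.20 for none, 1, 2 and 3 or more motifs. With similar widths they were 0.19, 0.20, 0.27 and -0.07, and the last values rest on only 8 and 5 regions. Shares of promoters did follow the order, with 1.202%, 4.71%, 12.1% and 25% 2-fold higher and 1.94%, 1.36%, 0.935% and 0% lower. The higher shares were 0.837%, 4.51%, 13.1% and 20% with similar widths. With the width ratio near its median they were 0.242%, 0.812%, 1.39% and 0%, the last over 6 regions. In the middle group by GC content the promoter medians were -0.07, -0.05, 0.23 and 0.24, the last over 4 regions. The motif is a run of letters, and no factor was measured at these regions.

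AP-1 and TEAD motifs ran against this. The AP-1 motif, outside the rule for named motifs and chosen after its values were seen, was in 18.3% of lower and 13.1% of higher distal regions, against 12.9% of all. Its share was flat, between 11.8% and 13.8%, at all log2 ratios above -1, and reached 24.8% from -2 to -1.5. The TEAD motif was in 12.4% of lower and 7.60% of higher regions, against 8.04% of all, and reached 18.0% in the same bin. With similar widths AP-1 was in 17.1% of the lower and 11.8% of the higher regions, and TEAD in 13.3% and 6.91%. The FOX motif TGTTTAC, read by forkhead factors, was in 5.39% of lower and 3.18% of higher regions, against 4.35% of all, and with similar widths in 6.33% and 3.07%.

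The other motifs by the rule had smaller ratios than NFI, and some changed side. CTCF binds insulators and loop anchors, and its core AGGGGGC was in 7.32% of lower and 3.98% of higher regions, against 6.76% of all. The ETS motif CCGGAAG was in 1.77% of lower and 0.98% of higher regions, against 1.57% of all. For both, the higher regions lay farther from the share of all than the lower ones. With similar widths their shares in higher regions were 1.09 and 1.85 times those in lower ones, but there only 7 and 1 of 158 lower regions held them. With the width ratio near its median both kept their side, at 0.80 and 0.94 times.

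The SP/KLF box GGGCGGG was in 3.95% of lower and 2.60% of higher regions, both below the 4.88% of all distal regions and the 6.88% of those within 25% of equal levels. On the higher side, AGATAAG, which the blood and heart regulators of the Gata family bind, was in 2.75% of higher and 1.82% of lower regions, against 2.51% of all. The LEF/TCF motif CTTTGAT was in 4.57% and 3.54%, against 4.39% of all, so for these motifs the higher regions lay near all distal regions and the lower ones below them. The posterior HOX motif TTTATGG was in 7.60% and 5.75%, against 6.07% of all. These 4 kept their side with similar widths, though only 1 of the 158 lower regions then held AGATAAG. The NFY motif CCAAT was in 38.6% of higher and 31.1% of lower regions, against 33.9% of all. It overlaps an NFI motif followed by T, and outside such overlaps it was in 35.7% of higher and 29.4% of lower regions. With similar widths the NFY shares were 38.3% and 36.7%, and outside NFI overlaps they changed side, to 35.1% and 36.1%.

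**Figure D3:**
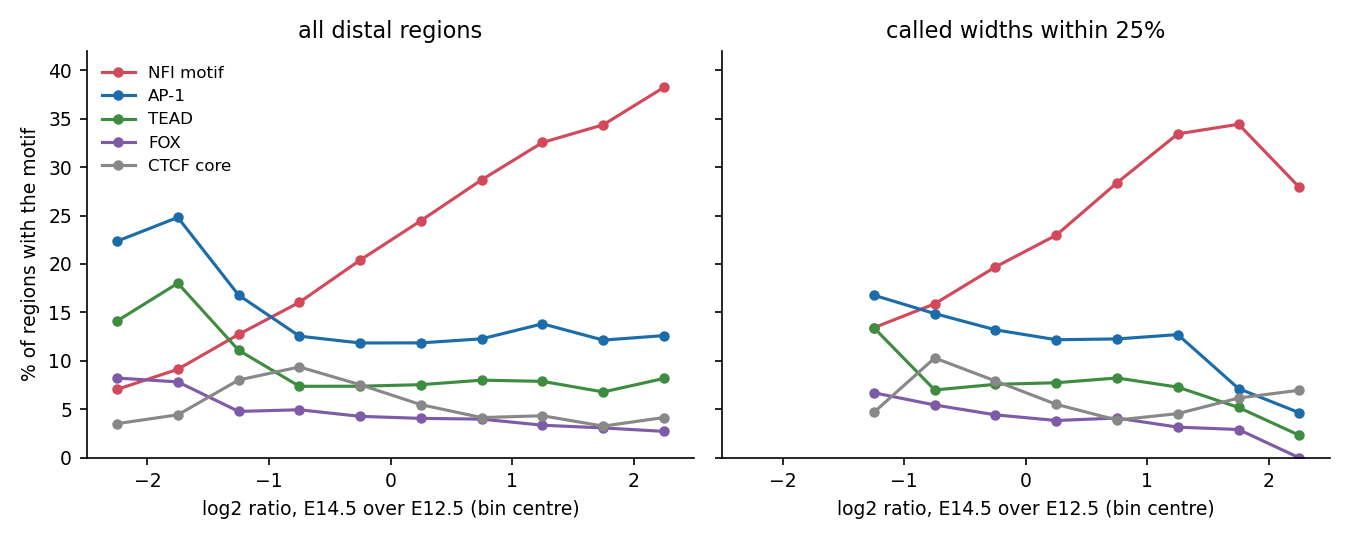
Share of distal regions with a motif in the 300 bp window, by bin of the log2 ratio of E14.5 over E12.5, over all distal regions (left) and those with called widths within 25% of each other (right, bins with at least 40 regions). The NFI motif climbs from 7.06% to 38.2% on the left, while AP-1 and TEAD are highest below a log2 ratio of -1; on the right it reaches 34.4% and is 27.9% in the last bin, which holds 43 regions.

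Single distal regions at or above the median level of their class were up to 9.72-fold higher at E14.5. Among intergenic regions at or above the median level of their class, the highest ratio lay 41.5 kb from Lrrc74a, at 2.30 CPM at E12.5 and 22.3 at E14.5 (log2 ratio 3.28, 95% interval 2.92 to 3.64). This and all following intervals cover counting error only, at 95% confidence, and were computed on fragments. The region in an intron of Mapkap1, a subunit of the mTORC2 kinase complex, was at 1.74 and 15.9 CPM (3.19, 2.77 to 3.61). The region 189 kb from Spata18 reached the highest level, at 6.71 and 59.7 CPM (3.15). Their sequences are given above. Regions here were chosen by mean level over both libraries and by ratio, so their high levels at E14.5 follow from the choice.

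The other high intron ratios were in Ppm1h, a phosphatase gene, at 4.61 and 37.2 CPM (3.01), in Trim2, 3.62 kb from its start site, at 2.33 and 18.8 CPM (3.01), and in the lincRNAs 4930461G14Rik near Insyn1 (1.71 and 14.2 CPM, 3.05) and Gm38407 near Rdh14 (2.02 and 16.6 CPM, 3.04). The remaining high intergenic ratios lay 171 kb from Col11a1, a cartilage fibril collagen gene, at 2.85 and 24.4 CPM (3.10), 48.1 kb from Aig1 (1.43 and 11.7 CPM, 3.03) and 11.1 kb from Camk2g (2.19 and 17.1 CPM, 2.97). All 10 had been called wider at E14.5, and per kb of called width their log2 ratios were 1.78 to 2.27.

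Low ratios were found in introns and between genes. An intron of Spidr, 71.5 kb from Cebpd, a transcription factor of adipogenic and inflammatory programmes, had 18.1 and 2.69 CPM (-2.75), an intron of Chuk, the IKK-alpha kinase gene, 19.98 and 3.36 CPM (-2.57), and an intron of Pepd, a peptidase of collagen turnover, 36.8 and 6.67 CPM (-2.47). The Pepd region holds the AP-1 motif shown above. Further low ratios were in introns of the lincRNAs 4930474H20Rik (-2.44) and Gm17767 (-2.39). Low intergenic ratios lay near Galc (33.1 and 5.15 CPM, -2.68), Klhl14 (22.2 and 3.68 CPM, -2.59), Cacna2d1 (36.7 and 6.26 CPM, -2.55) and Cd24a (26.1 and 4.64 CPM, -2.49). These regions had all been called narrower at E14.5, with per-kb log2 ratios from -2.08 to -1.75.

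**Figure D4:**
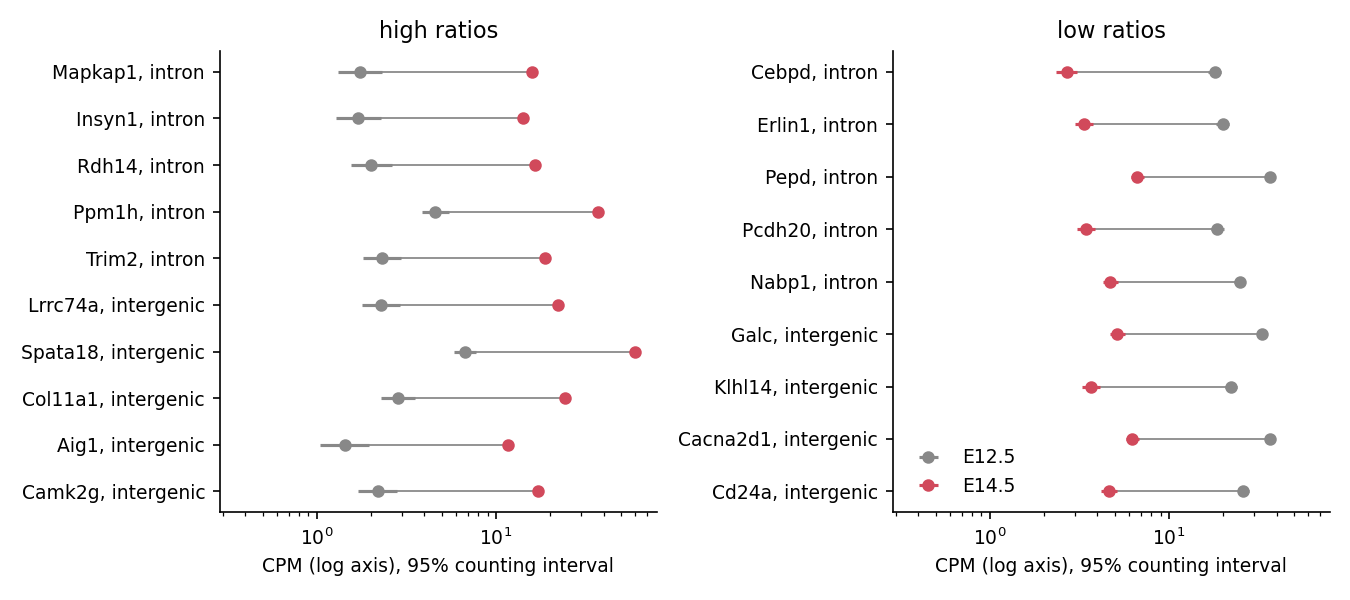
CPM on a log axis at E12.5 (grey) and E14.5 (red) of intron and intergenic regions with high (left, 10 regions) and low (right, 9 regions) ratios by the rule for named regions, named by the nearest start site, with 95% counting intervals. On the left the levels go from between 1.43 and 6.71 CPM to between 11.7 and 59.7 CPM, and no pair of points overlaps within its intervals.

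Among promoter regions at or above the median level of their class, differences were smaller. The highest ratios there were at Tarsl2, a tRNA synthetase gene (27.1 and 58.0 CPM, log2 ratio 1.097), Arap1 (26.2 and 55.8 CPM, 1.09), Tapt1 (30.5 and 64.9 CPM, 1.09), the promoter shared by Zc2hc1c and Acyp1 (33.1 and 68.1 CPM, 1.04) and Emp1, an epithelial membrane protein gene (34.1 and 68.6 CPM, 1.01). Per kb of called width all 5 were below 2-fold, with log2 ratios of 0.86, 0.50, 0.86, 0.90 and 0.45 in this order. The lowest ratio there was at Gm10800, at 161 and 34.3 CPM (-2.23), where 70.3% of the region is soft-masked as repeats. Reads there may be split among copies, so this value is uncertain. Oacyl followed at 63.8 and 20.5 CPM (-1.64), then the unconfirmed transcripts Gm45746 (-1.49) and Gm42566 (-1.45), and Fgd4, an exchange factor for Cdc42, at 70.2 and 27.4 CPM (-1.36). Per kb these 5 were from -2.43 to -1.19.

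Distal regions were then assigned to the nearest protein-coding start site within 100 kb. This gave 28204 regions and 9632 genes. At least 1 region was 2-fold higher at 2367 genes and 2-fold lower at 2370, and 738 genes had at least 1 of each. Ltbp1, which encodes a protein that stores latent TGF-beta in the matrix, had the most higher regions, 8 of 14, with none lower. Genes with many regions can lead such a ranking by their number, and 12.6% of all distal regions were higher and 10.8% lower. This background, also used for gene lists below, includes regions beyond 100 kb, which the counts per gene leave out. Far regions were called more often, with 16.9% higher and 12.1% lower in the farthest decile. The top region of Ltbp1, 56.9 kb from the start site, had 2.502 and 17.5 CPM (log2 ratio 2.80), and its other higher regions ran from 1.08 to 1.86. Bicc1, an RNA-binding protein gene, had 7 of 13 higher and 1 lower.

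A further 7 genes had 6 higher regions each. These were Snx2 (6 of 9), Spag17 (of 12), Pde4b (of 15), Nckap5 (of 17), Thsd4 (of 24), and Creb5 and Frmd4a (each of 30). Snx2, Pde4b and Frmd4a had none lower, while Thsd4 had 4 lower. The summed accessibility of the 9 regions of Snx2 was 57.5 CPM at E12.5 and 122 at E14.5 (1.09), and that of Pde4b, a cyclic AMP phosphodiesterase gene, 83.4 and 120 CPM (0.53). At Creb5 the summed levels were near equal, with 263 and 270 CPM (0.04). These 9 genes were chosen for their higher regions and had 57 of 164, and with similar widths 27 of 80, among them 3 of 5 at Ltbp1, 5 of 10 at Pde4b and 2 of 15 at Frmd4a. The tenth place was tied among 14 genes with 5 higher regions, including Dlk1, Tcf4, Twist2, Zfp423 and Prickle1.

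On the lower side Foxp1, a forkhead repressor gene, led with 6 lower and 3 higher of 30 regions, and 320 and 220 CPM in sum (-0.54). Another 7 genes had 5 lower regions each, of 13 at Maml2, 14 at Adamtsl3 and Vps8, 16 at Erg, 22 at Dlc1, 23 at Tiam1 and 26 at Kalrn. Maml2, a Notch co-activator gene, and Vps8 had none higher, with 192 and 109 CPM (-0.82) and 167 and 113 CPM (-0.56). Erg, a factor of endothelium and of joint cartilage, had 5 lower and 1 higher of 16, with 201 and 144 CPM (-0.49). Another 13 genes tied with 4 lower regions, among them Slit3, Pxdn and Tnr. Of the called regions of the genes with at least 6 higher or at least 5 lower, 13 of 57 higher ones and 7 of 41 lower ones held an NFI motif, so the higher ones were near the 21.8% of all distal regions and below the 34.0% of all higher ones. Of the 158 regions of these 8 genes with 5 or 6 lower regions, 48 had similar widths, and none of those was lower, where 0.976% of all such distal regions were, too few to set the genes apart.

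Accessibility was also summed per gene over the matched regions in the gene body and 2000 bp upstream. This covered 15030 autosomal protein-coding genes, and sums differed less than single regions. Only 114 genes (0.758%) were 2-fold higher and 177 (1.18%) 2-fold lower, with a median log2 ratio of 0.09 and 62.0% of genes above 0. Over promoter regions alone, 64 of 13034 genes (0.491%) were higher and 80 (0.614%) lower, with a median of 0.16, and over nearest distal regions 376 of 9632 were higher and 607 lower, with a median of -0.26. Promoter and nearest distal ratios of the same gene were barely related. Across 6993 genes with both, Spearman's rho was 0.04, given as a description since the genes share the libraries and are not independent. The 37 genes with a promoter 2-fold higher had a distal median of -0.01, the 53 with a promoter 2-fold lower -0.33, and all 6993 genes -0.25.

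No protein-coding gene at or above the median level of genes was 2-fold higher in sum. The highest ratio was that of Zc2hc1c, at 40.4 and 78.1 CPM (log2 ratio 0.95, 0.86 to 1.04). Sh3pxd2b, an adaptor of invadopodia and podosomes, had 61.8 and 115 CPM (0.89), with the promoter at 0.69 and the nearest distal regions at 0.69. Timp3, an inhibitor of matrix metalloproteinases, had 65.5 and 116 CPM (0.83), with 0.30 at its promoter and 0.85 at its nearest distal regions. Usp15, a deubiquitinase gene, rested on 1 region with 39.0 and 71.4 CPM (0.87).

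The other high ratios were those of Tbcd (56.4 and 99.4 CPM, 0.82), Ctnnal1 (47.2 and 82.0 CPM, 0.80), Cdo1 (51.5 and 88.1 CPM, 0.77), Il17d (54.7 and 92.8 CPM, 0.76) and D1Ertd622e (49.1 and 82.8 CPM, 0.75). These genes all stayed above 0 per kb of called width, from 0.28 to 0.87, and with similar widths, from 0.26 to 0.95. The differences of these genes, which were chosen for their ratios, were therefore in the same direction under both of these settings. Values with the width ratio near its median are not given for them.

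The low ratios lay farther from 0. After Gm10800 came Fam155a, at 175 and 78.6 CPM over 12 regions (-1.16), and Tgfbi, a matrix protein gene induced by TGF-beta, at 110 and 51.0 CPM (-1.10, -1.17 to -1.04). Mnat1, a subunit of the CDK-activating kinase, had 87.4 and 42.7 CPM (-1.04), which was -0.24 with similar widths, and Oacyl 98.6 and 48.1 CPM (-1.03), which was -0.04. Col9a1, a chain of the cartilage collagen IX, had 90.6 and 45.6 CPM (-0.99), which was -0.56 with similar widths, with its promoter at 55.7 and 22.5 CPM (-1.31, -1.40 to -1.21).

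Smad9, a transducer of BMP signals, had 78.9 and 41.0 CPM (-0.94), with 66.4 and 33.9 CPM at its promoter (-0.97). The remaining low ratios were those of Clnk (72.3 and 36.1 CPM, -1.001, and -0.35 with similar widths), Kcnmb2 (76.4 and 39.0 CPM, -0.97) and Rbfox3 (102 and 53.7 CPM, -0.92). With similar widths and after rescaling, Gm10800 (-2.37), Fam155a (-1.09) and Tgfbi (-1.29) were 2-fold lower, and Kcnmb2, Smad9 and Rbfox3 had no value. The rescaling by itself moved Gm10800, with 1 region, from -2.23 to -2.37, and Fam155a passed 2-fold only with it. Per kb of called width all 10 stayed below 0, from -2.43 to -0.49.

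Gene lists were set beside all genes. The MP and lineage lists follow genes that the study picked on its own samples, so their counts are not independent evidence. All 16 genes of the MP list had a matched region in reach or as a nearest distal region, and none of the 9 with a gene sum passed 2-fold. The summed accessibility of the list was 919 CPM at E12.5 and 934 at E14.5, and the median log2 ratio was 0.06, against 0.09 for all genes. Pdgfra, the receptor that marks limb mesenchyme, had 183 and 190 CPM, and Twist1, a factor of mesenchymal identity, 65.2 and 86.1 CPM (0.40). Hic1 had no matched region at its gene, and its 4 nearest distal regions ran from -0.62 to -0.23. Of the 80 nearest distal regions of the list 7 were 2-fold higher and 8 lower, where 12.6% and 10.8% of all distal regions were. Among single regions, the one 6.42 kb from Id1, a BMP target, had 42.4 and 15.6 CPM (-1.44). A region near Id3 had 13.98 and 4.24 CPM (-1.72), and a region 17.6 kb from the start of Pdgfra 1.26 and 5.80 CPM (2.20). Per kb of called width these were nearer 0, at -1.07, -1.21 and 1.06.

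Few lineage genes had a 2-fold sum, as few of all genes did (0.758% higher and 1.18% lower). Of 18 chondrogenic genes with a sum none passed 2-fold, 7 were above 0, where 62.0% of all genes were, and the median was -0.19, or -0.08 with similar widths. Sox5, which acts with Sox9 and Sox6 in cartilage, had 290 and 199 CPM (-0.55) over 21 regions, with an intron region at 43.2 and 12.1 CPM (-1.83, and -1.38 per kb). Col2a1 had 133 and 127 CPM and Col11a1 108 and 126 CPM. Of 12 genes of the tenogenic list only C1qtnf3 passed, at 8.66 and 17.5 CPM (1.01), and the study names it as a marker of fascia. Per kb it was below 2-fold (0.65). With similar widths it was at 0.87, but it rested on 1 promoter region, so this lower value came from the rescaling alone. The tendon factor Scx had no matched region, so the tenogenic list is read without its leading factor. Tnmd and Bgn lie on the X chromosome, outside the autosomal regions compared.

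The fibrogenic list had none of 20 genes past 2-fold, with a median of 0.11. Its nearest distal regions had a median of 0.09 per gene, against -0.26 for all genes, with 14 higher and 6 lower of 98 regions, where 12.6% and 10.8% of all distal regions were. A pair of regions near Cxcl12, a chemokine of stromal cells, had 2.92 and 13.8 CPM (2.246) and 8.51 and 32.2 CPM (1.92), and the region near Lum, a proteoglycan of collagen fibrils, 2.26 and 7.34 CPM (1.70). Per kb of called width these were 1.35, 0.68 and 0.87, so only the first stayed past 2-fold. The dermal fibrogenic list had 18 higher and 6 lower of 100 nearest distal regions, against the same 12.6% and 10.8%, and a gene median of -0.01, which was 0.29 with similar widths and 0.19 per kb. Of the higher regions 5 lay near Twist2, a dermal factor, the top at 3.78 and 26.7 CPM (2.82, and 1.82 per kb), together with 2 lower ones, and 5 near Dlk1. Joint genes had a median of 0.27 over 9 genes, none past 2-fold.

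The NFI list had the highest promoter median of the lists. The promoter of Nfic had 14.6 and 31.2 CPM (1.09, 0.95 to 1.246), that of Nfix 24.1 and 41.8 CPM (0.80, 0.68 to 0.92) and that of Nfib 74.2 and 110 CPM (0.57, 0.50 to 0.63). Nfia had no matched promoter region, and its gene sum was 222 and 217 CPM. An intron region of Nfix had 4.14 and 19.4 CPM (2.23, and 1.80 per kb). The median over the 3 promoters was 0.80, against 0.16 for all genes. Summed over gene bodies, the 4 NFI genes differed by -0.03 to 0.37.

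Signalling lists showed single genes rather than whole pathways past 2-fold. In the BMP and TGF-beta list, 2 of 22 genes were 2-fold lower, Tgfbi and the ligand gene Bmp7 (27.7 and 12.01 CPM, -1.21, and -0.81 per kb), none was higher, and the median was -0.03. Over all genes 1.18% were lower and 0.758% higher, which is also the background for the single FGF and limb position genes named next. Near Smad6, an inhibitor of BMP signals, an intron region had 1.48 and 10.2 CPM (2.78) and an intergenic one 18.1 and 7.18 CPM (-1.33), which were 1.63 and -0.86 per kb. In the FGF list the ligand gene Fgf9 was higher at 1.67 and 4.09 CPM (1.29), the decoy receptor gene Fgfrl1 lower at 11.8 and 5.84 CPM (-1.02), and the median of 14 genes was -0.15. Per kb neither passed 2-fold (0.70 and -0.37), and with similar widths Fgf9 was at 1.15 and Fgfrl1 had no value. The FGF target genes Etv4 (109 and 82.3 CPM), Etv5 (185 and 144 CPM) and Dusp6 (141 and 110 CPM) were each lower by less than 2-fold, while the feedback inhibitor gene Spry1 was higher (39.7 and 55.7 CPM, 0.49) and Spry4 was at 71.5 and 63.8 CPM. None of 28 Wnt genes passed 2-fold, and their median was 0.07.

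Limb position genes included 1 in each direction. Tbx5, the forelimb identity factor, had 1 intron region in reach, at 13.0 and 37.3 CPM (1.52), and Alx4 had 3.83 and 1.80 CPM (-1.09). Per kb they were below 2-fold, at 0.93 and -0.64, and with similar widths Tbx5 was at 1.38 and Alx4 had no value. Hoxd13, of the digit-forming Hox genes, had 25.7 and 39.8 CPM (0.63). The posterior genes Hoxa9 to Hoxa11 and Hoxd9 to Hoxd12 had no matched region. Here, as at Hic1 and Scx, this does not show that the genes were closed. The list median was -0.05 over 18 genes. None of 7 bone genes passed 2-fold, with a gene median of -0.03, and their 4 promoters had a median of -0.37. None of 10 pericyte genes (median -0.03), 6 perineural genes (0.12) or 4 lateral plate genes (0.04) did either, and of 4 muscle connective tissue genes Tbx5 alone was 2-fold higher. With similar widths, where the median of all genes was 0.05, list medians moved most for muscle connective tissue (0.71, over only 2 genes), bone (0.32, 7 genes), dermal fibrogenic (0.29, 13 genes) and Schwann genes (0.11, from 0.38, over only 3 genes), followed by pericyte genes (-0.21, 9 genes).

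Markers of cells that the sort should leave out were read as a check. Myod1 and Myf5 of muscle, Krt5 of epithelium, Csf1r and Itgam of blood, and Cdh19 of Schwann cells had no matched region, which does not show that they were closed. Gata1 of blood lies on the X chromosome, which was left out. Summed list accessibility was 90.3 and 80.8 CPM for 6 of 10 myogenic genes, 357 and 349 CPM for 7 of 10 endothelial genes, 189 and 147 CPM for 7 of 9 epithelial genes, 206 and 205 CPM for 5 of 9 blood genes, and 95.9 and 120 CPM for 4 of 7 Schwann genes. Single members passed 2-fold, 2 higher and 2 lower, where 0.758% of all genes were higher and 1.18% lower. These were Tek, an endothelial receptor gene, higher at 18.9 and 45.4 CPM (1.26), S100b of Schwann cells, higher at 4.21 and 16.1 CPM (1.94), and Cdh1 of epithelium, lower at 64.1 and 28.9 CPM (-1.15), with Myf6 of muscle lower at 11.03 and 5.11 CPM (-1.11). Per kb of called width they were at 0.87, 1.02, -0.66 and -0.58 in this order, so S100b alone stayed past 2-fold, and with similar widths Tek was at 1.099 and the others had no value. The promoters did not all go with the sums. That of Cdh1 was at 16.5 and 14.7 CPM (-0.17), and that of Trp63, an epithelial factor, was higher at 1.24 and 5.14 CPM (2.05), while the Trp63 sum was at 32.1 and 28.2 CPM. Members of these lists, S100b among them, may also be open in other cells, so their ratios do not show which cells were present. The part of cells that the sort should leave out in the other results was not tested.

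**Figure D5:**
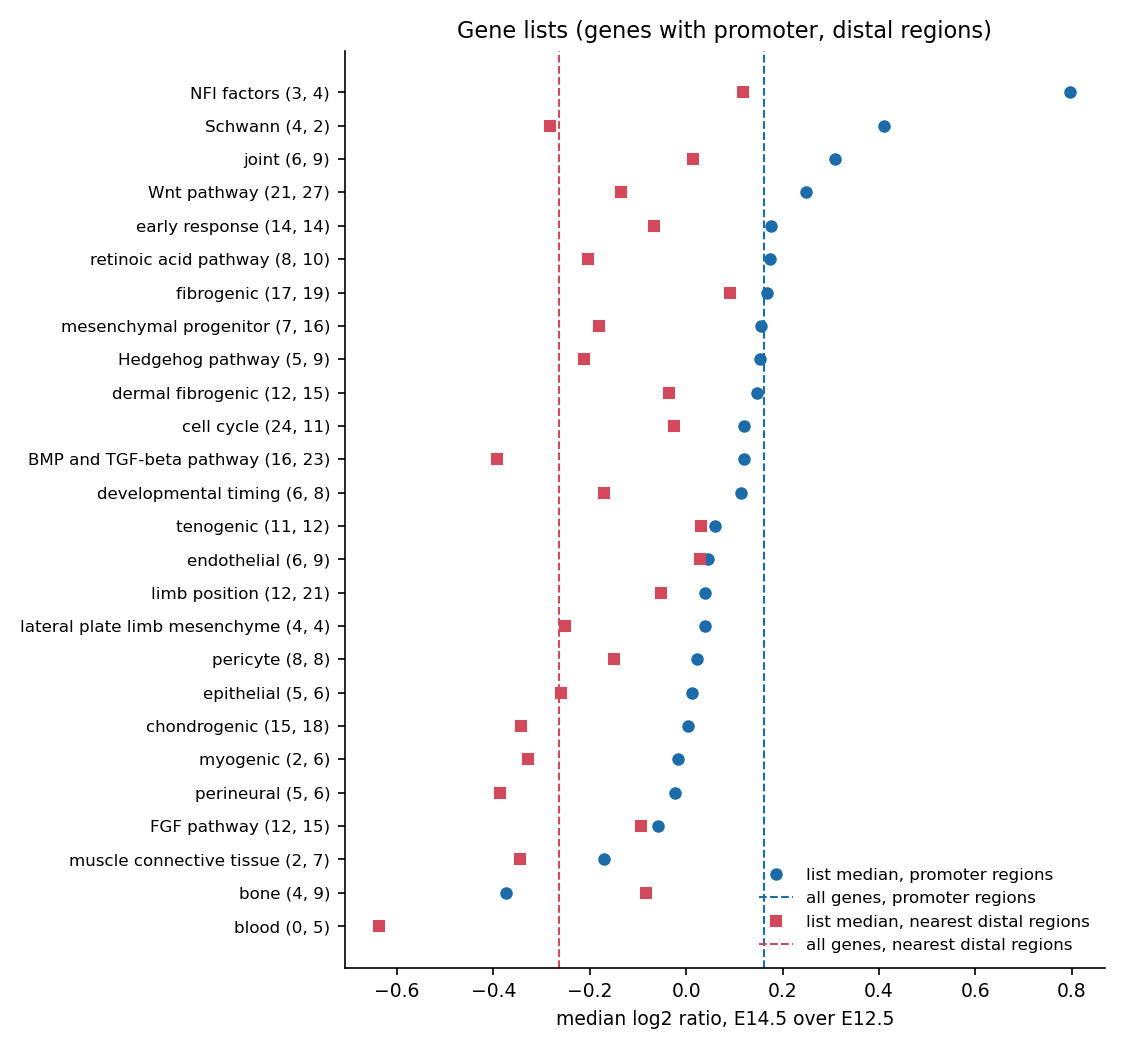
Median log2 ratio of E14.5 over E12.5 for each gene list, over the genes' promoter regions (circles) and nearest distal regions (squares), with the number of genes behind each in brackets and dashed lines at the medians of all genes, 0.16 and -0.26. The promoters of the NFI list lie farthest to the right at 0.80, and the nearest distal regions of the fibrogenic list lie at 0.09.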

How the data were processed

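Single-nucleus ATAC-seq libraries of sorted tdTomato-positive MPs from E12.5 and E14.5 mouse forelimbs were compared. The authors deposited raw counts of cut sites for each peak and nucleus, aligned to mm10, with peaks called in each library alone and no normalisation. The submitters' processing notes name Cell Ranger ATAC 1.1.0, and the headers of both matrices name software version 1.0.1. Of the matrix entries, 77.3% (E12.5) and 77.8% (E14.5) equalled 2, as 2 cut sites per fragment give.

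All deposited nuclei were summed and no doublet caller was run. Matched regions were scaled to 1000000 cut sites per library and classed as promoter, exon, intron or intergenic with the GENCODE annotation of GRCm38, against which chromosome names and lengths were checked. With 1 library per stage no p-value or SE was computed, and a call is a 2-fold ratio. Exact conditional binomial and Poisson intervals at 95% confidence were computed on cut sites divided by 2. Scripts used Python 3.11.15, numpy 2.4.6, pandas 2.3.3 and scipy 1.17.1, and were tested on simulated data.

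Named genes and regions were the 10 highest and 10 lowest ratios of gene sums and the 5 of each class of region, at or above the median CPM of their kind, the genes nearest to the most called distal regions, up to 3 of the highest and lowest ratios of each of 26 lists, and the 5 motifs at each end. Some list members, such as the regions near Cxcl12 and Smad6 and the FGF target genes, were chosen after their values were seen. The comparison, the lists and the motifs were chosen with earlier results of these data known. For region counts 12 other settings were planned and 1 was added. Those that hold the width ratio near its median, or that apply width limits, NFI overlaps or the palindrome to motifs, were chosen after seeing the data. A few items that these rules select are not reported here.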

Additional observations from a re-analysis of the deposited data

How the results depend on the processing

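No paired analysis was possible because each stage had 1 library, and for the same reason no library could be left out. The counts of regions 2-fold higher and lower, 5729 and 5191, were 1365 and 388 at 80% overlap, 1840 and 1577 per kb of called width, 1602 and 403 with widths within 25% of each other and rescaled, and 521 and 1590 with the width ratio near its median. With each class scaled on its own, 3351 were lower. The split of calls moved with these settings other than per kb, and with GC correction, to 6901 higher and 3634 lower.

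Genes 2-fold higher, 114, numbered 177 with classes scaled, 37 per kb, 20 with the width ratio near its median, 64 over promoters and 376 over nearest distal regions. Genes 2-fold lower, 177, numbered 30 at 80% overlap, 37 per kb, 29 with similar widths, 78 with the width ratio near its median, 80 over promoters and 607 over nearest distal regions.

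The promoter minus distal difference, 0.32, was 0.02918 with classes scaled, 0.12 per kb and 0.16 after GC correction, and reversed to -0.03461 at 80% overlap and -0.079 with similar widths, while it was 0.33 with the width ratio near its median and between 0.285 and 0.3515 under the other settings. The CTCF and ETS ratios reversed to 1.09 and 1.85 with similar widths, on 7 and 1 of 158 lower regions, and were 0.80 and 0.94 with the width ratio near its median. The cause of these shifts was not tested, except that per-kb, width and overlap settings act on called width by construction. Alternative values were set against a margin, the mean distance of the counting interval's ends from the ratio. For genes the margin came from the counts under each setting. Of the alternative values of named genes 124 moved by more than this margin and 157 did not. Of those of named regions 88 moved and 232 did not, with no called value changing sign. At 100 cut sites per region counting error limits regions of low CPM at E12.5 most.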

Other observations

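Genes of the cell cycle and of early response were close to all genes, of which 0.758% were 2-fold higher, 1.18% lower and 62.0% above 0. None of 24 cell cycle genes was 2-fold different, with 16 above 0 and a median log2 ratio of 0.12, against 0.09 for all genes. The highest ratios among them were those of Birc5, a mitotic survivin (34.2 and 48.1 CPM), and Ccne1, cyclin E1 of S phase entry (45.5 and 61.9 CPM), and Cdkn1b, a CDK inhibitor, was at 61.9 and 83.3 CPM. None of 15 early response genes passed 2-fold, 11 were above 0, their median was 0.14, and their sum was 1647 CPM at E12.5 and 1833 at E14.5. Jun, a subunit of AP-1, was at 156 and 206 CPM and Nr4a2 at 139 and 189 CPM. The digestion also differed between the libraries, and its part was not tested.

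Of 10 genes of developmental timing, 3 were above 0, where 62.0% of all genes were, and none passed 2-fold (median -0.03, and 0.09 with similar widths). Hmga2 was at 267 and 245 CPM, Hmga1 at 6.85 and 3.94 CPM (-0.80) and Trim71 at 10.5 and 8.17 CPM (-0.37), while Igf2bp2 was at 66.4 and 91.1 CPM (0.46). Of 9 Hedgehog genes none passed 2-fold (median 0.06), and Gli3, the repressor of the pathway, had the lowest ratio at 179 and 132 CPM. Of 10 retinoic acid genes none passed, with 5 above 0, while an intergenic region 78.8 kb from Cyp26b1, which degrades retinoic acid, had 0.811 and 5.67 CPM (log2 ratio 2.81) and an intron region 63.2 kb from it 14.6 and 5.96 CPM (-1.30), which were 1.54 and -0.63 per kb of called width. Median log2 ratios of all matched regions lay between -0.09 and -0.03 on every autosome.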
